A study of Homo sapiens with 2 samples.

Results

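The genes for replacement and variant histones were examined in ATAC-seq peak lists from 293T cells. The 9 genes H3-3A, H3-3B, CENPA, H2AZ1, H2AZ2, H2AX, MACROH2A1, MACROH2A2 and H1-10 were taken by name from GENCODE 44, out of 20033 protein-coding genes. Every deposited peak within 1000 bp of any of their annotated transcription start sites (TSSs), over the gene bodies or within 50 kb of a TSS was used. These were 27 of the 36142 peaks of the control list and 25 of the 22884 peaks of the MGO list.

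ATAC-seq uses a transposase to cut open DNA, and a peak marks a stretch where cuts are enriched over background. 293T cells descend from human embryonic kidney cells and express the large T antigen of SV40. One group was grown for 12 h with 0.5 mM methylglyoxal (MGO), a reactive by-product of glycolysis that glycates proteins, and the other was the control, which the labels describe in one place as PBS and in another as plain fresh medium. Each group had 1 library, made from 50000 cells, so no difference between the groups could be tested against replicate error, and each comparison below describes this pair of libraries. The control list covered 30.3 Mb with a median peak width of 724 bp, and the MGO list covered 19.5 Mb with a median of 753 bp. The authors brought the libraries to equal depth by random subsetting of reads, and the lists do not give the number of reads behind a peak. The label was checked against markers chosen for the line: VIM, INA, NEFM and PAX2 had a promoter peak in both lists and LHX1 had one in neither. Of 5 markers of other cell types, PTPRC, CD3E, ALB and CDH5 had no promoter peak in either list, and COL3A1, a fibroblast collagen, had one in control only.

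Most histones are made in S phase from clustered genes to package newly replicated DNA. Replacement and variant histones are instead made from single genes with introns or polyadenylated transcripts, in part outside S phase, and dedicated chaperones exchange them into existing nucleosomes. H3-3A and H3-3B both encode H3.3, which marks transcribed genes and, at repeats, heterochromatin, whereas CENPA encodes the H3 variant that defines centromeres. H2AZ1 and H2AZ2 encode the H2A.Z proteins found beside active start sites, H2AX encodes the variant that is phosphorylated at DNA breaks, MACROH2A1 and MACROH2A2 encode large variants with a macro domain that are often found in silent chromatin, and H1-10 encodes the linker histone H1x.

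The promoters of 6 of these genes are shown as examples that hold CCAAT, the sequence feature most common among the members, or a TATA box, before the main start of the gene. These 6 lay wholly under a control peak, and wholly or in part under an MGO peak. The main H3-3A start, position 226062716, also has CCAAT, 65 bases before it, with 250 of 250 bases covered in both lists, and is not printed. CCAAT was found as well in other windows of H3-3A and MACROH2A1, of which 1 at the upstream start of MACROH2A1, position 135399887, had 52 of 250 bases under a control peak and 0 under an MGO peak, and 1 at the H3-3A start at position 226061831 had 52 and 157. Each is the stretch of up to 250 bases before a RefSeq start, 5′ to 3′ on the strand of the gene, from GRCh38.p14. Bases annotated as untranslated regions of transcripts were left out, but other transcribed bases were not. Annotated starts lie inside the H2AZ1 stretch, at positions 99950299 and 99950355, and inside the CENPA stretch, at position 26786027. Capitals mark CCAAT or its complement ATTGG, and TATAAA or its complement TTTATA, and no matches overlap each other here. The stretches are chr17:75779781-75780029 on the minus strand for H3-3B, chr2:26785806-26786055 on the plus strand for CENPA, chr4:99950281-99950525 on the minus strand for H2AZ1, chr7:44848088-44848337 on the minus strand for H2AZ2, chr11:119095466-119095715 on the minus strand for H2AX and chr3:129316287-129316536 on the minus strand for H1-10.
H3-3B: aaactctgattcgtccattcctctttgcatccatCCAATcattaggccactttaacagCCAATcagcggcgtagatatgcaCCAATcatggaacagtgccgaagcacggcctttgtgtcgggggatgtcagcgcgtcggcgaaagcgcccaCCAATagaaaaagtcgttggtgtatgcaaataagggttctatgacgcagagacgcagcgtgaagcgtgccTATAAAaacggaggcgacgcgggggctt
CENPA: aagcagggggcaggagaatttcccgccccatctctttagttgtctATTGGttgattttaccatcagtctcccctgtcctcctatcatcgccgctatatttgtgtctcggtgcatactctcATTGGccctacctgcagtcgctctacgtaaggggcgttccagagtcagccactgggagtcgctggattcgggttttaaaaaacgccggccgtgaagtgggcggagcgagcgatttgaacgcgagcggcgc
H2AZ1: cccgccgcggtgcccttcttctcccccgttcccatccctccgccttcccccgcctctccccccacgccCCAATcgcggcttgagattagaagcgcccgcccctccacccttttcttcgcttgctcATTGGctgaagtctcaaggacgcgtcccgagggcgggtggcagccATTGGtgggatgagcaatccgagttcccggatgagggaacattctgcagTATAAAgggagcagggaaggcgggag
H2AZ2: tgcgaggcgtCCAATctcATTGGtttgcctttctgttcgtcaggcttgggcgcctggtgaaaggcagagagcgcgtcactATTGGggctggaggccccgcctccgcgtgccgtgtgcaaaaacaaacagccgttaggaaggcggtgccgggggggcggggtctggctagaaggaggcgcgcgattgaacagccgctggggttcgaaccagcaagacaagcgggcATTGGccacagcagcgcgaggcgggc
H2AX: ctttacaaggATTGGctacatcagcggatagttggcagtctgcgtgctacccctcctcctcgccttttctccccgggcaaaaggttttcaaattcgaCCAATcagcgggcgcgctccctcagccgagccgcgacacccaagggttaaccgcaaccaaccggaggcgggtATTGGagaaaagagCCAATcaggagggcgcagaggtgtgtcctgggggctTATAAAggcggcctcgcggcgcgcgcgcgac
H1-10: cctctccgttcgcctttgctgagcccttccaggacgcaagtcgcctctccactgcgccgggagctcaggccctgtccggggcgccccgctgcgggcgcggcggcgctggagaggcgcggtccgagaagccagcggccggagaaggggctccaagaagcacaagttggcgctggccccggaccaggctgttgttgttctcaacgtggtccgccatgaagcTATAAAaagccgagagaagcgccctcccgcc

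In the 250 bases before 13 RefSeq starts, which covered all 9 genes, CCAAT was found on either strand at 7 of 9 genes. Among all protein-coding genes with a RefSeq promoter, 40.2% of 15842 held it. The motif is the binding sequence of the factor NF-Y, and here a match describes letters only. H3-3B held 4 matches, the first bases of which lay 216, 192, 169 and 99 bases before the start. H2AX also held 4, at 240, 153, 81 and 67 bases, as did H2AZ2, at 240, 232, 170 and 26 bases. H2AZ1 held 3 and CENPA held 2, while the windows of H1-10 and MACROH2A2 held none. TATAAA, the TATA box, was found at 4 of 9 genes, against 11.9% of all protein-coding genes. In H1-10, H2AZ1 and H2AX it began 31 bases before the start and in H3-3B 29 bases before it. GGGCGG, searched on both strands as well, was found at 5 of 9 genes, against 62.1% of all, with 6 matches in the window of the main H3-3A start. CCGGAA was found at 1 of 9 genes (23.0% of all), TTTGAA at 2 of 9 (14.2%), TTCGAA at 1 of 9 (1.74%) and TGACGTCA at 0 of 9 (2.73%).

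All 9 genes had a promoter peak, meaning a peak within 1000 bp of a TSS, in both lists. Of all protein-coding genes, 67.3% had one in control and 63.9% in MGO. At each of the 9 genes a control promoter peak was overlapped by an MGO peak, by 1 bp or more. This was also so for 92.9% of the protein-coding genes with a control promoter peak, so 9 of 9 was near the background. The count depended on the peak threshold, which was applied to both lists. With a −log10 q of at least 5 it was 4 of 5 members, against 69.1% of genes. With a fold enrichment of at least 4 it was 0 of 2, against 39.8%. These 2 were CENPA and H2AZ2, with 4.40 and 4.37 in control. Their MGO peaks, with 3.38 and 3.68, were removed by the cut, although both overlapped the control peaks. The genes held 11 promoter peaks in each list, which formed 11 pairs of 1 control and 1 MGO peak, because H3-3B and CENPA each had an upstream start with a peak of its own. Of 84 TSS positions, 63 lay inside a control peak and 58 inside an MGO peak. No share over all protein-coding TSS positions is given beside these counts, so they describe the members only. Many of the positions lie under the same peak, as do 13 of MACROH2A1 in control.

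**Figure D1:**
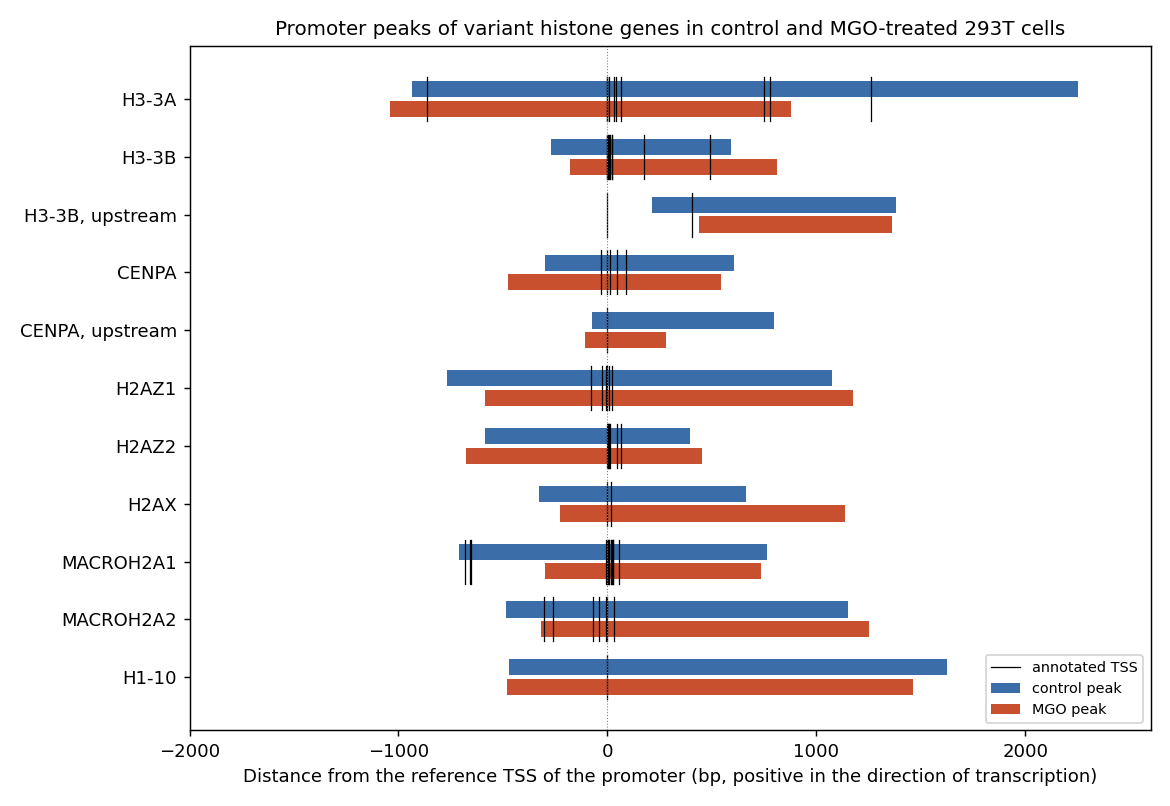
Promoter peaks of the 9 genes, drawn by distance in bp from the reference TSS of each promoter, with transcription running to the right. Blue bars are control peaks, red bars MGO peaks and black ticks annotated TSSs, and all 11 control peaks overlap an MGO peak while the H3-3A peak is 3190 bp wide in control and 1924 bp in MGO.

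The H3.3 genes differed in how their peaks changed. H3-3A lies at chr1:226061851-226072019 on the plus strand, with 10 TSS positions. Its control peak, chr1:226061779-226064968, was 3190 bp wide, at the 99.8 percentile of control widths, and its MGO peak, chr1:226061674-226063597, was 1924 bp. The MGO peak was thus 0.603 times as wide, and the lost stretch was the downstream side, where the edge lay 1371 bp further in. All 10 TSSs lay in the control peak and 9 in the MGO peak. Fold enrichment over background was not lower along with the width: it was 3.05 in control and 3.10 in MGO, and −log10 p was 14.8 and 15.9. The lists give 1 value for a whole peak and no profile within it, so heights within peaks could not be compared. Because the libraries and lists differ, −log10 p was also ranked within each list, which gave percentiles of 92.6 in control and 96.4 in MGO. By fold enrichment the same peak ranked near the middle of each list, at percentiles of 46.7 in control and 50.9 in MGO. Unless fold enrichment is named, a percentile below is that of −log10 p. A percentile also depends on the other peaks of its list and can differ where the peak does not. At MACROH2A2, −log10 p was 5.99 in both lists, while the percentile was 59.8 in control and 54.6 in MGO.

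H3-3B, at chr17:75776434-75785893 on the minus strand, showed no such shortening at its main start. The peak there was 865 bp wide in control (chr17:75779186-75780050) and 991 bp in MGO (chr17:75778966-75779956), a ratio of 1.15. Its fold enrichment was 2.73 in control and 2.64 in MGO, with a −log10 p of 5.11 and 6.19 and percentiles of 49.4 and 57.0. The upstream peak, which also lies within 1000 bp of a start of UNK, was 1172 bp in control (chr17:75784510-75785681) and 924 bp in MGO (chr17:75784531-75785454). There −log10 p was 5.91 in control and 4.52 in MGO. The percentile was 59.0 and 31.7, the largest difference in percentile of the 11 pairs. The MGO peak ended 32 bp short of the H3-3B TSS at position 75785486. By width and by −log10 p, the main and upstream promoters of this gene therefore differed in opposite directions between the lists.

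CENPA, at chr2:26764289-26801067 on the plus strand, held one of the 2 member promoter peaks with a fold enrichment above 4 in control. At its main start the fold enrichment was 4.40 in control (chr2:26785759-26786661, 903 bp) and 3.38 in MGO (chr2:26785580-26786602, 1023 bp). The −log10 p was 13.6 in control and 7.83 in MGO, and the percentile 90.7 and 70.9, so this peak was wider but ranked lower in the MGO list. Over the promoter pairs of all protein-coding genes the percentile also moved down, with a median change of -7.69 points and a lower quartile of -19.05, and the main CENPA peak, the upstream H3-3B peak and the H2AZ1 peak moved by more than that quartile. The upstream CENPA start lies beside SLC35F6, a solute carrier gene. Its peak was 874 bp in control (chr2:26764214-26765087) and 391 bp in MGO (chr2:26764182-26764572), a ratio of 0.447, the lowest of the 11 pairs, with 515 bp lost from the downstream side.

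The H2A.Z genes had control peaks of high −log10 p that ranked lower in MGO, H2AZ2 by less than the median change over all promoter pairs. H2AZ1, at chr4:99948086-99950355 on the minus strand, had a peak of 1844 bp in control (chr4:99949200-99951043) and 1759 bp in MGO (chr4:99949101-99950859). Its −log10 p was 11.9 in control and 6.76 in MGO, and its percentile 87.1 and 62.6, while the fold enrichment was 2.65 and 2.29, the former at a percentile of 11.3 of control fold enrichments. H2AZ2, at chr7:44826791-44848087 on the minus strand, had the control peak of highest percentile among the 11. This peak was 981 bp in control (chr7:44847692-44848672) and lay wholly inside the MGO peak of 1130 bp (chr7:44847633-44848762). Its fold enrichment was 4.37 in control and 3.68 in MGO, and its percentile 94.8 and 89.6. Both genes thus had a lower fold enrichment in MGO, while the width ratio was 0.954 at H2AZ1 and 1.15 at H2AZ2.

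H2AX, a gene without introns at chr11:119093874-119095465 on the minus strand, had the highest width ratio of the 11 pairs. Its peak was 991 bp in control (chr11:119094802-119095792) and 1364 bp in MGO (chr11:119094327-119095690), a ratio of 1.38. The added 475 bp lay downstream, over the gene itself, and annotated exons made up 67.0% of the control peak and 83.5% of the MGO peak. The fold enrichment was 3.23 in control and 3.09 in MGO and the percentiles were 75.1 and 79.1, so the peak was wider in MGO without a higher fold enrichment.

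The macroH2A genes are long, with many internal starts, and their peaks lay at starts near the 5′ end. At MACROH2A1, chr5:135334381-135399914 on the minus strand, 13 of 21 TSS positions lay inside the control peak and 10 inside the MGO peak. The peak was 1472 bp in control (chr5:135398468-135399939) and 1034 bp in MGO (chr5:135398495-135399528), and the MGO peak lay wholly inside the control peak. Most of the lost bases were on the upstream side, where the edge moved by 411 bp past the starts at 135399884, 135399887 and 135399914, and 27 bp were lost downstream. The fold enrichment was 3.19 in control and 3.50 in MGO, with a −log10 p of 7.39 and 7.40 and percentiles of 70.3 and 67.8. At MACROH2A2, chr10:70052544-70112282 on the plus strand, 7 of 19 TSS positions lay inside a peak in each list. Its peak was 1637 bp in control (chr10:70052361-70053997) and 1572 bp in MGO (chr10:70052528-70054099), and the fold enrichment was 3.07 and 3.10. With a −log10 p of 5.99 in both lists, it hardly differed by these values, while the percentile was 59.8 in control and 54.6 in MGO.

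H1-10, a single-exon gene at chr3:129314771-129316286 on the minus strand, had a peak over its whole length in control. The control peak was 2099 bp (chr3:129314661-129316759) and the MGO peak 1946 bp (chr3:129314821-129316766). The fold enrichment was 2.45 in control and 2.46 in MGO and the percentiles 44.2 and 44.9. It was a wide peak of low fold enrichment in both lists, and its fold enrichment and percentile differed least of the 11 pairs.

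**Figure D2:**
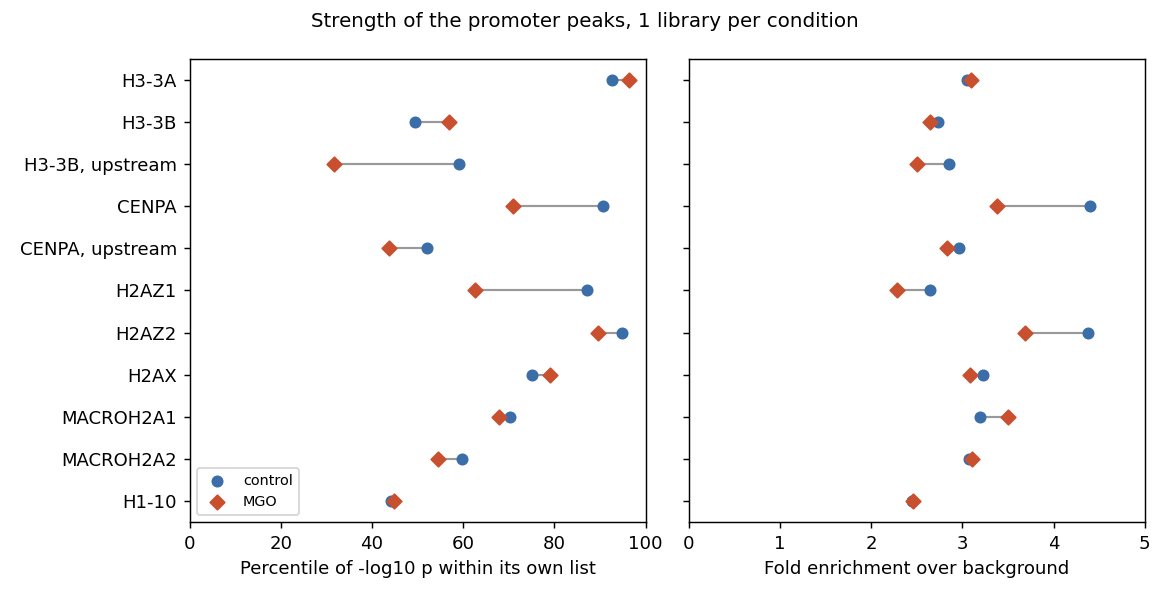
Strength of the 11 promoter peaks, with the percentile of −log10 p within each list on the left and the fold enrichment over background on the right. Blue circles are control and red diamonds MGO, with 1 library each and no error bars, and the longest line on the left is the upstream H3-3B peak, at 59.0 in control and 31.7 in MGO.

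Over the 11 pairs, 7 were narrower in MGO, against 68% of the 11589 promoter pairs of all protein-coding genes, and the median width ratio was 0.954 against 0.900. The fold enrichment was lower in MGO in 7 of 11 pairs, against 74.7% of all, with a median ratio of 0.956 against 0.921. The −log10 p was lower in 6 of 11 pairs, against 77.5% of all. By covered promoter length, which joins the windows of all TSSs of a gene, 6 of 9 genes had less in MGO, against 69.9% of all genes with a control promoter peak, and the median ratio of MGO to control was 0.897 against 0.884. With 11 pairs in 1 library per condition, these values do not set the members apart from promoters at large. The median ratio of covered length depended on the peak threshold, applied to both lists. With peaks of a −log10 q of at least 5, it was 1.13 over 5 members and 0.815 over all genes. With a fold enrichment of at least 4 it was 0 over 2 members and 0 over all genes. In total 15232 bp of member promoter windows were covered in control and 13099 bp in MGO. H3-3A had the lowest ratio of covered length, 0.603, and H2AX the highest, 1.25.

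**Figure D3:**
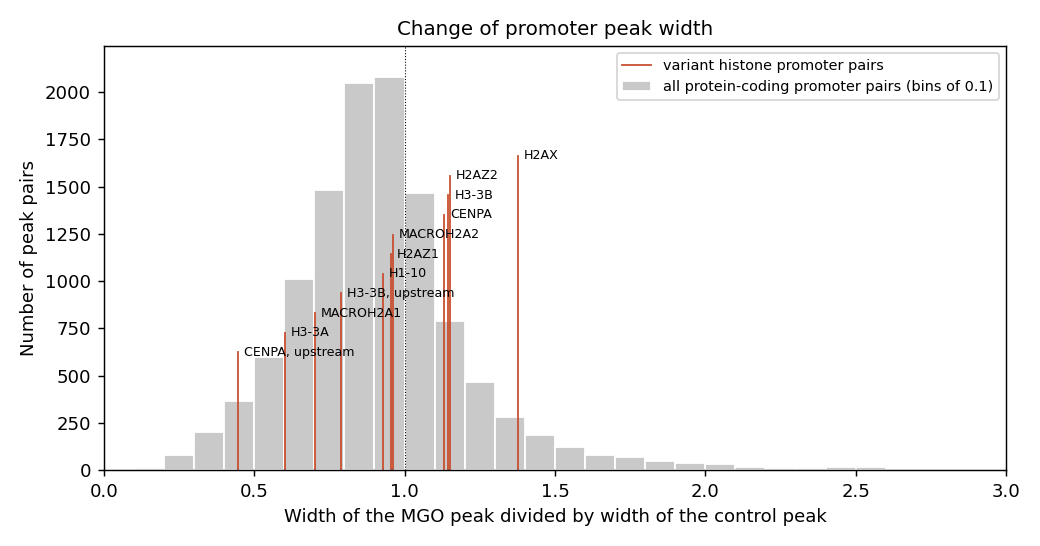
Width of the MGO peak divided by the width of the control peak, with grey bars counting the 11589 promoter pairs of all protein-coding genes in bins of 0.1 and red lines marking the 11 pairs of the variant histone genes. The axis ends at 3, with 21 pairs beyond it, and the red lines run from 0.447 at the upstream CENPA start to 1.38 at H2AX, with line heights chosen for legibility.

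The overlap of promoter peaks followed their strength. Among promoter control peaks of all protein-coding genes, the share overlapped by an MGO peak was 27.8% in the weakest 20% of the control list by −log10 p, and 52.0%, 77.4%, 94.8% and 99.8% in the following steps of 20% up to the strongest. Of the 11 member peaks, 0 lay below a percentile of 40, 5 between 40 and 60, 2 between 60 and 80 and 4 above 80. Of the promoter control peaks of all protein-coding genes, 615, 1090, 2020, 3880 and 5666 lay in these steps, from weakest to strongest. The median percentile of the member peaks was 70.3 in control, against 79.4 over the promoter pairs of all genes. These were thus peaks of middling to high rank, with a lower median than promoters at large.

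The edges of promoter peaks that were covered in control only were poorer in G and C than the shared parts. Within the 11 pairs, 12690 bp were shared, 3338 bp were covered in control only and 1368 bp in MGO only. H3-3A alone gave 1371 bp of the control-only length, and 1967 bp remained without it. The control-only edge had a lower GC content than the shared part in all 10 pairs that had such an edge, as it did in 81% of such pairs over all protein-coding genes. The median GC content was 67.8% in shared parts and 52.1% in control-only edges, against 66.9% and 57.2% over all genes. MGO-only edges were lower than the shared part in 6 of 9 pairs, against 73.1% over all genes. Their median GC content was 65.0% in the members and 59.4% over all genes. Over all genes, edges found in 1 list were thus mostly poorer in G and C in either direction. In the members the median of MGO-only edges lay close to that of the shared parts. Whole MGO peaks had a higher GC content than their control peaks in 9 of 11 pairs, against 64.7% of all, with a median of 65.4% in member control peaks and 67.4% in member MGO peaks. Base composition was not separated from distance to the start here, and its part in the change of width was not tested.

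H3-3A showed the largest contrast of this kind. Its lost downstream edge, chr1:226063598-226064968, had a GC content of 38.9%, against 68.7% in the shared part, and 932 of its 1371 bp are exonic in at least one transcript. A stretch of 200 bases of it that lies outside annotated exons, chr1:226063682-226063881 on the plus strand, had a GC content of 45% and is shown to let the lost DNA be compared with the promoters above.
H3-3A edge: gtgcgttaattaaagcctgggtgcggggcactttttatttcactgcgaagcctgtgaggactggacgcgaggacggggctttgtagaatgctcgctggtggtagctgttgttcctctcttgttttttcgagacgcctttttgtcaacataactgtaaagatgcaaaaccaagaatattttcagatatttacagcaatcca

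At MACROH2A1 the 438 bp covered in control only had a GC content of 56.4%, against 73.7% in the shared part, and at the upstream CENPA start the 515 bp had 56.1%, against 70.5%. H2AX went the other way: the 475 bp gained downstream had 74.3%, above the 67.8% of its shared part.

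Within 50 kb of the 9 genes, 24 of 27 control peaks were overlapped by an MGO peak, or 88.9% (Wilson 95% interval 71.9 to 96.1, which covers counting error only). Around all protein-coding genes the share was 59.1% of control peaks. With a fold enrichment of at least 4 in both lists, 0 of 3 control peaks near members were overlapped, against 37.3%. All 3 overlapped deposited MGO peaks, which lay below this cut. In the other direction 24 of 25 MGO peaks, or 96.0% (80.5 to 99.3), were overlapped by a control peak, against 85.4%. The ratio of MGO to control peak number was 0.926 (exact interval 0.515 to 1.66) near these genes and 0.692 near all protein-coding genes, so the difference lay within the counting interval. This ratio was 1.09 and 0.992 with the lists cut to equal numbers of peaks, and 0 and 0.465 with a fold enrichment of at least 4. Of the 27 control peaks, 23 lay within 1000 bp of an annotated TSS, against 14226 of 25143 near all protein-coding genes. All 23 were overlapped, against 86.1% of TSS peaks near all genes. Of the 4 distal control peaks, those farther than 1000 bp from every TSS, 1 was overlapped, or 25% (4.56 to 69.9), against 23.9%. With peaks of a −log10 q of at least 2, 1 distal control peak was left and it was overlapped, so the share near members rests on the weak peaks.

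**Figure D4:**
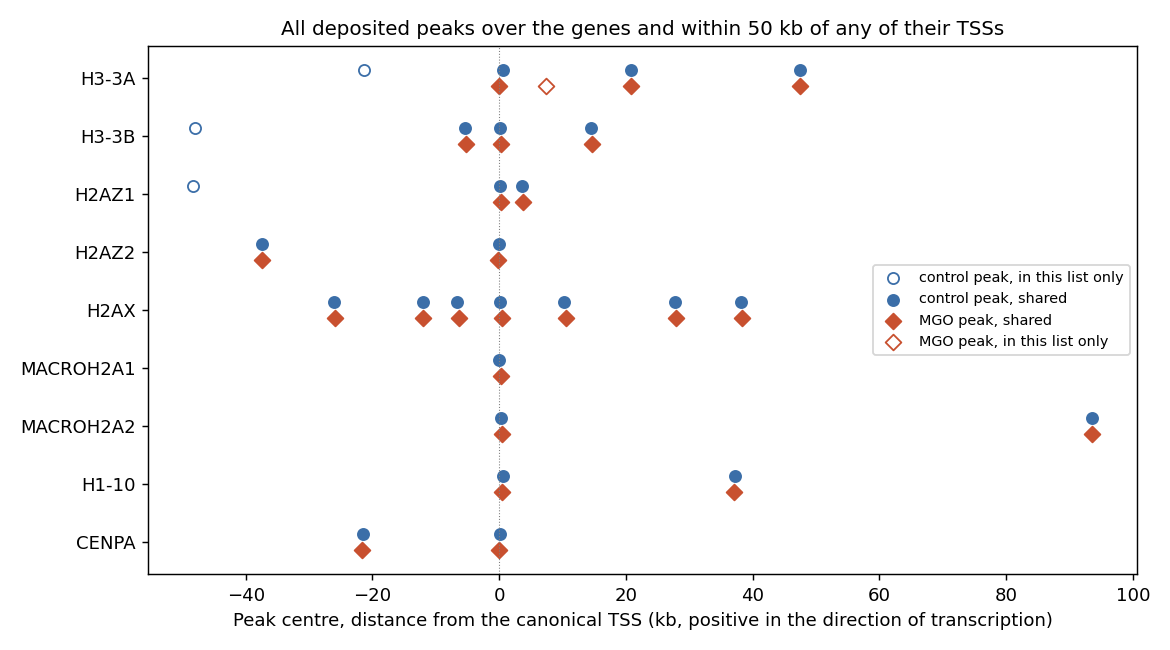
All deposited peaks over the 9 genes and within 50 kb of any of their TSSs, by distance of the peak centre from the canonical TSS in kb, with transcription running to the right. Filled symbols are peaks overlapped by a peak of the other list and open symbols peaks found in 1 list, and the open symbols are 3 control peaks, near H3-3A, H3-3B and H2AZ1, and 1 MGO peak in H3-3A.

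The distal peaks around H3-3A covered each outcome. A peak found in both lists, chr1:226109630-226110831, lay 45653 bp from the nearest H3-3A TSS, was 1202 bp wide in control and 1126 bp in MGO, and ranked at percentiles of 92.9 and 97.2. A control peak with no MGO counterpart, chr1:226041188-226041470, lay 20381 bp from the gene on the upstream side, was 283 bp wide and had a fold enrichment of 2.70 and a percentile of 31.5. The GC content was 70.7% under the shared control peak, with 125 CpG sites in 1202 bp, and 41.3% under the control-only peak, with 1 CpG site in 283 bp. This contrast did not hold for every control-only peak of the set, as the one near H3-3B had 67.0% and the one near H2AZ1 33.8%. The 1 MGO-only peak of the set, chr1:226069900-226070459, lay wholly in an intron of H3-3A, 5923 bp from the nearest TSS. It was 560 bp wide, with a fold enrichment of 2.34, a −log10 q of 1.27 and a percentile of 3.76, so it was among the weakest peaks of the MGO list. The sequences of the first pair of these peaks, on the plus strand of GRCh38 and all in lower case as no motif is marked, are shown to set the kept site beside the one found in control only: the central 300 bases of the shared control peak (chr1:226110081-226110380) and the whole control-only peak.
shared distal peak: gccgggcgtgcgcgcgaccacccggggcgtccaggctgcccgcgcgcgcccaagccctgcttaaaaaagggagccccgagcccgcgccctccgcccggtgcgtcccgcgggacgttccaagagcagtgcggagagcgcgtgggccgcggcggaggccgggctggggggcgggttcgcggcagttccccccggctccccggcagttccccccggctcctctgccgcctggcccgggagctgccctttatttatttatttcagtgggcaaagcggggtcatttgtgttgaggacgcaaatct
control-only peak: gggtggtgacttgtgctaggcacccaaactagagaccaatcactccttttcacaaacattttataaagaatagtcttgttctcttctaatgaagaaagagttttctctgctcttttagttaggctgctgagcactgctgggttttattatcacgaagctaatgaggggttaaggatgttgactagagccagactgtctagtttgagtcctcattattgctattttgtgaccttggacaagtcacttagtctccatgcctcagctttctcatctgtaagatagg

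The other control-only peaks were weak as well. The one 41734 bp from H3-3B, chr17:75827627-75827978, was 352 bp wide with a fold enrichment of 2.56 and a percentile of 24.0, and its nearest TSS, 2169 bp away, was that of UNC13D. The one 47853 bp from H2AZ1, chr4:99998208-99998912, was 705 bp wide with a fold enrichment of 2.93 and a percentile of 22.0. Distance alone placed both in the set, and these data do not tie either to the histone gene.

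H2AX lay in the densest neighbourhood, with 7 peaks in each list, all shared and all within 1000 bp of a TSS. They include the promoter of HINFP, a factor known for driving histone H4 genes, whose peak was 1082 bp in control and 1131 bp in MGO with percentiles of 84.8 and 77.6. The 2 peaks at the starts of DPAGT1 and C2CD2L ranked lower in MGO, one at percentiles of 71.2 in control and 17.9 in MGO and the other at 60.1 and 13.6, while the H2AX peak beside them kept its rank. Next to H2AZ1, the DNAJB14 promoter peak, 3101 bp away, had a −log10 p of 10.2 in control and 4.90 in MGO. Its percentiles were 82.5 and 38.9. The −log10 p was thus lower in MGO at this peak and at the H2AZ1 peak. MACROH2A1 had no peak other than its promoter peak within 50 kb in either list.

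The factors that place these histones were examined in the same way. Of 12 deposition factors for H3.3 and CENP-A, 11 had a promoter peak in both lists and DAXX, the H3.3 chaperone that acts with ATRX, had one in neither. The lists also held peaks off the main chromosomes, 627 in control and 505 in MGO, which were not placed on genes. The part of this, and of the authors' removal of reads that map to several places, in the absence at DAXX was not tested. The median ratio of covered promoter length was 0.990, and 6 of 11 genes had less in MGO. The ratio was 0.566 at ATRX and 0.534 at CABIN1, a subunit of the HIRA complex, and 1.28 at HIRA itself. For the CENP-A machinery it was 0.798 at HJURP, the CENP-A chaperone, and 1.24 at OIP5, which belongs to the Mis18 complex that prepares centromeres for it. Of 11 genes for H2A.Z exchange, all had a promoter peak in both lists, with a median ratio of 0.861, and 10 of 11 had less covered length in MGO. The lowest was VPS72, the H2A.Z chaperone of the exchange complexes, at 0.606, and the exception was DMAP1 at 1.09. Beside the 69.9% of all genes with less covered length and their median of 0.884, neither list is set apart by these values.

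Other histone genes were counted in the same way. Of 14 further variant histone genes, among them H2AJ, H3-5 and the H2AB, H2BW and H1 genes known mainly from germ cells, 0 had a promoter peak in either list, against 12545 of 20033 protein-coding genes with one in both. The nearest control peak lay 2995 bp from H2AJ. H2AB1, H2AB2 and H2AB3 are near-identical copies. The authors removed reads that map to several places, and the part of this filter in the absence of peaks was not tested. Of 69 replication-dependent histone genes, 47 had a promoter peak in both lists, 2 (H4C12 and H4C2) in control only and 20 in neither, which is near the shares over all protein-coding genes. Their median ratio of covered length was 0.947, with less in MGO at 34 of 49 genes, against a median of 0.884 and 69.9% over all genes and a median of 0.897 and 6 of 9 at the replacement and variant genes. Neighbouring genes in the histone clusters share promoter peaks, so the 49 genes rest on 32 control peaks, of which 30 were overlapped by an MGO peak.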

How the data were processed

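ATAC-seq libraries of 293T cells, 1 control and 1 exposed to MGO at 0.5 mM over 12 h, were analysed from the broad peak lists. Per the submitters' processing notes, reads were aligned to GRCh38.p12 with BWA 0.7.15. The authors used Picard, version 2.16.0 in the notes, to discard reads that were mitochondrial or mapped to several places, subsampled reads to equal depth, and found peaks with MACS2 outside blacklisted regions. The peaks were broad peaks, and the MACS2 version and further settings are not given in the sources used here. The peak names carry a library number, so further libraries may have been made, which were not analysed here.

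For each peak the authors deposited a fold enrichment, which is a ratio over background, and the −log10 of the p-value and of the q-value. The deposited score, made from the q-value, was not used. The lists reach down to a −log10 q of 1.01, whereas a q-value of 0.01 is the threshold in the methods, so all deposited peaks were used and stricter sets were alternatives. The lists hold no read counts, so no precision per peak could be given, and the intervals of shares and peak numbers cover the counting of peaks only. For the median ratio of covered length, the interval used was 0.702 to 1.15. It ran from rank 2 to rank 8 of the 9 ordered member ratios and describes the spread over genes.

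Peaks were placed on GENCODE 44, with overlap from 1 bp, with Python 3.11.15, numpy 2.4.6, pandas 2.3.3 and scipy 1.17.1. All peaks lay on sequences of the reference used, and 13 of 13 RefSeq member promoters matched it. The overlap code was tested on simulated intervals. With 1 library per condition no test between conditions was made. Values over the members were set beside those of all protein-coding genes. Alternatives varied the peak threshold, list size, overlap, start sites, promoter window and neighbourhood. The members, the lists of related genes and the motifs were chosen with earlier results of these data known. Named were all members with every promoter and gene body peak, and the peaks within 50 kb found in 1 list only. The neighbouring genes, the genes named from the lists, the shared distal peak and the sequences shown were chosen after their values were seen. Some neighbouring or related items are not reported here.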

Additional observations from a re-analysis of the deposited data

How the results depend on the processing

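Of 57 values recomputed under alternatives, 46 stayed within the interval of the value reported or equal to it and 11 moved. Among the 46, the median ratio of covered length at a −log10 q of at least 5 and the ratio of peak numbers at equal list sizes turned from below to above 1. With a −log10 q of at least 2, all 9 members kept an overlapped promoter peak, and the 1 distal control peak left was overlapped (100%, against 25.1% near all protein-coding genes). With a −log10 q of at least 5, 5 members kept a control promoter peak and 4 of these were overlapped. Of all protein-coding genes that kept such a peak, 69.1% were overlapped. At this threshold 71.4% of the 14 control peaks near members were overlapped (62.3% near all protein-coding genes), and the distal share was again 100% (24.0%). The median ratio of covered length was 1.13 in place of 0.897 (0.815 over all genes in place of 0.884). With a fold enrichment of at least 4, 2 members kept a control promoter peak and 0 of these were overlapped (39.8% of all genes that kept one). The median ratio, the share of control peaks near members and the ratio of peak numbers were all 0 (0, 37.3% and 0.465 over all protein-coding genes). No MGO peak and no distal control peak near members was left there, so the shares over those could not be given. With the lists cut to equal numbers of peaks, 100% of control peaks near members and 100% of the 1 distal peak left were overlapped, against 77.5% and 40.0% near all protein-coding genes, and the ratio of peak numbers was 1.09. Within 10 kb, 100% of 14 control peaks were overlapped (72.7% near all protein-coding genes), and no distal control peak was left. Overlap rules and start sites moved no value beyond its interval. No paired analysis was possible because each condition had 1 library. Depth was equalized by the authors, and without read counts per peak no error could be given for widths and fold enrichments.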

Other observations

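Some distances belong to no comparison above. The gene DAXX, which had no promoter peak, lay 68403 bp from the nearest control peak and 87234 bp from the nearest MGO peak. LHX1, a kidney marker without a promoter peak, lay 390957 bp from the nearest control peak and 6621 bp from the nearest MGO peak. At COL3A1, whose promoter peak was in control only, 599 bp of promoter were covered in control and the nearest MGO peak lay 3863 bp away.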
